A study of Mus musculus with 12 samples.

Results

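Gluconeogenesis and glycogen storage were followed through 9 genes, G6pc, Slc37a4, Fbp1, Fbp2, Pck1, Pcx, Ppargc1a, Gys2, and Pygl, which were taken by symbol from the 24421 genes counted in liver tumors and non-tumoral livers of p21+/Tert and p21+/TertCi mice. All 9 were present in the count tables of all 12 libraries. Pck1 was lower in tumors than in livers and passed the test, and Pck1, Fbp1, and Slc37a4 each lay below every liver in 5 of the 6 tumors. The exception was the same tumor for all of them, a p21+/TertCi adenoma. No member was below every liver in all 6 tumors, whereas 2.18% of 13822 genes were. The share of all genes below every liver in 5 of the 6 tumors was not counted. The glycogen genes Gys2 and Pygl, the coactivator gene Ppargc1a, Pcx, G6pc, and Fbp2 did not pass in any of the 11 comparisons. G6pc and Fbp2 passed only in some alternative fits, and Fbp2 was not tested between all tumors and all livers.

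Gluconeogenesis is the synthesis of glucose from lactate, glycerol, and amino acids, and in the fed-to-fasted transition the liver is the main organ that carries it out. Pyruvate carboxylase (Pcx) and phosphoenolpyruvate carboxykinase (Pck1) bypass the pyruvate kinase step of glycolysis, fructose-1,6-bisphosphatase (Fbp1 in liver, Fbp2 in muscle) bypasses phosphofructokinase, and glucose-6-phosphatase (G6pc), fed by the glucose-6-phosphate transporter (Slc37a4), releases free glucose. Liver glycogen synthase (Gys2) and liver glycogen phosphorylase (Pygl) build and break down the stored polymer, Ppargc1a encodes the coactivator PGC-1α, and glucagon and insulin set the expression of several of these genes in opposite directions. In the liver lobule, gluconeogenesis is a mainly periportal function.

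The libraries are bulk poly(A) RNA of 6 mice over 18 months old on a standard diet, with 1 tumor and 1 sample of non-tumoral liver each. In the 4 p21+/Tert mice Tert, the telomerase reverse transcriptase, is expressed from the promoter of p21 (Cdkn1a), and in the 2 p21+/TertCi mice the expressed Tert is catalytically inactive. All mice therefore carried 1 modified p21 allele, and no wild-type liver was analysed here. The p21+/Tert tumors are T-HCC662, T-HCC663, T-HCA992, and T-HCC941, and the p21+/TertCi tumors TCi-HCC981 and TCi-HCA984, with HCC for hepatocellular carcinoma and HCA for hepatocellular adenoma. Each liver and mouse is named here by its tumor. By the mutations described for them, T-HCC662 and T-HCC663 carried an activating Ctnnb1 (β-catenin) mutation, T-HCC941 and TCi-HCC981 an Egfr or Hras mutation, and T-HCA992 and TCi-HCA984 neither. Driver class, genotype, and diagnosis are confounded, since both Ctnnb1-mutated tumors came from p21+/Tert mice and both tumors with neither mutation are adenomas by name. All libraries are of bulk tissue, so fewer hepatocytes and less RNA per hepatocyte cannot be told apart. The feeding state and the time of day at collection are not given in the sources used here, and both bear on these genes.

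The stretches upstream of 4 genes are shown because Pck1 and Fbp1 were the members below the own liver in every mouse, Fbp2 is the neighbor and paralog of Fbp1 and was above all livers in the Ctnnb1-mutated tumors, and G6pc had the largest ratio of the highest to the lowest liver among the members above 10 CPM per kilobase. Each is the 250 bases before the start site of RefSeq (GRCm38.p6), written 5′ to 3′ on the strand of the gene, with capitals at the motifs that were searched for.
Pck1, chr2:173152823-173153072, plus strand: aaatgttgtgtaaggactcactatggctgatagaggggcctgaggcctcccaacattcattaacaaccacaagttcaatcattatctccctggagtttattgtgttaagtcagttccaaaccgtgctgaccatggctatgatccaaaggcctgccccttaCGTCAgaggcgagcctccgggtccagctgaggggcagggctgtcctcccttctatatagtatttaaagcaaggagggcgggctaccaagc
Fbp1, chr13:62888283-62888532, minus strand: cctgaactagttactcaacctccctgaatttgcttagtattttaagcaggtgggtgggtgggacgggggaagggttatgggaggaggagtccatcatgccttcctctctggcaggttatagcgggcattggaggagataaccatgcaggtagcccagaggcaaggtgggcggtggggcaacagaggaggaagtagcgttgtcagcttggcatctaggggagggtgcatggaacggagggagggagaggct
Fbp2, chr13:62858401-62858650, minus strand: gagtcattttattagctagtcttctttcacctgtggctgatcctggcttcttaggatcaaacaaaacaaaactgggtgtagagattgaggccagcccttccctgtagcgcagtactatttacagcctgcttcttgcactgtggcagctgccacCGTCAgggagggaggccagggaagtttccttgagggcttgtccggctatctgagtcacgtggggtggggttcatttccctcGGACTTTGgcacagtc
G6pc, chr11:101367466-101367715, plus strand: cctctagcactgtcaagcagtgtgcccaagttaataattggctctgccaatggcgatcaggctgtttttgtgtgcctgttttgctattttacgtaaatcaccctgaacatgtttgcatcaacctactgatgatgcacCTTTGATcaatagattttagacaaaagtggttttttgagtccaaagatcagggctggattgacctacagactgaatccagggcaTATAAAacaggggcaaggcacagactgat
In Pck1 the capitals are the short core of the cAMP response element, TGACG, read on the opposite strand as CGTCA, at base -90 from the start site. Fbp2 holds the same core at -97, and the HNF4 core CAAAGTCC, read on the opposite strand, at -16. In G6pc they are the TCF motif CTTTGAT at -113 and a TATA box (TATAAA) at -29. No searched motif lay in the Fbp1 window. The search covered both strands of the window from 250 bases before to 50 after each start, in 11 windows of 8 members, and Gys2 had no entry. The core TGACG was found in windows of 5 members (Fbp2, Pck1, Ppargc1a, Pygl, and Slc37a4) and is held by 20.8% of all 32851 windows. The shares of all windows were 13.6% for TATAAA, 3.73% for CTTTGAT, and 1.42% for CAAAGTCC. The full element TGACGTCA, which contains that core, the forkhead motif GTAAACA, and the C/EBP-like motif TTGCGCAA were in no member window, against 1.79%, 3.65%, and 0.183% of all windows. These matches describe the letters only.

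Between 14571716 and 23932529 reads were counted on genes per liver and between 17471387 and 26170661 per tumor. Levels are given as counts per 1000000 counted reads (CPM) after TMM scaling. Tests are edgeR's quasi-likelihood F test over all genes kept by its filter on low counts, and a gene passed, or was called, at a Benjamini-Hochberg adjusted p under 0.05. SD is the spread between mice, and SE is the standard error of the log2 difference. The liver of T-HCC662 is labelled p_961, and the header of its count table and the elimination of the other livers tie it to that tumor, so values of T-HCC662 relative to its own liver rest on this match. The 7 hepatocyte markers (Alb, Apoa1, Ttr, Asgr1, Hnf4a, Serpina1c, and Apob) summed to between 33119 and 57297 CPM in livers and between 18759 and 98899 CPM in tumors. Scaling by library totals alone, which shifted the median log2 fold change of all genes between tumors and livers from 0.01 to 0.20, moved the share of higher genes among the calls from 63.4% to 83.1%.

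Levels per length, in CPM per kilobase of exon, set the order of the members in the 6 non-tumoral livers. Pck1 led with 995 ± 377 (SD, n = 6) CPM per kilobase, followed by Fbp1 with 565 ± 105. Pcx (148 ± 45.3), G6pc (118 ± 72.6), Pygl (83.3 ± 29.7), and Slc37a4 (67.8 ± 18.4) followed within about 1 SD of their neighbors, and Gys2 had 38.7 ± 19.0 CPM per kilobase. Ppargc1a (1.39 ± 0.615) and Fbp2 (0.138 ± 0.199) were far below the others. In the 6 tumors the first place passed to Fbp1, with 294 ± 183 CPM per kilobase against 235 ± 303 for Pck1, a difference within the spread. Among the livers, G6pc had the largest ratio of the highest to the lowest library of the 7 members above 10 CPM per kilobase, 8.02 (63.1 to 506 CPM), whereas that of Fbp1 was 1.54 (682 to 1052 CPM).

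**Figure D1:**
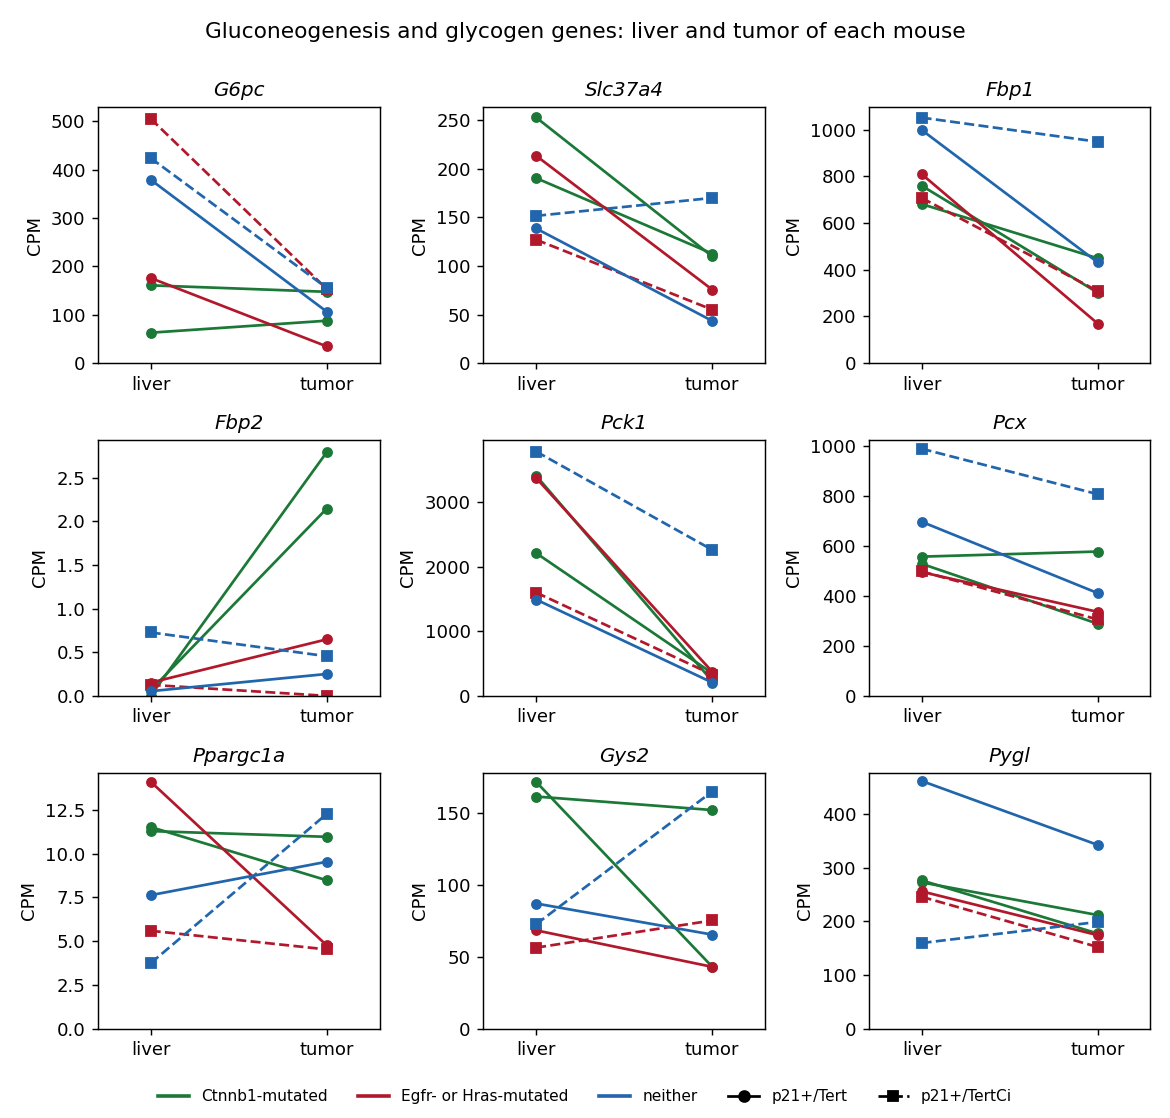
CPM of each of the 9 genes (linear axes that start at 0) in the non-tumoral liver and the tumor of each mouse, joined by a line, colored by the driver class of the tumor, with solid lines for p21+/Tert and dashed lines for p21+/TertCi mice. All 6 lines fall for Pck1 and Fbp1, and the dashed line of TCi-HCA984 stays high in both.

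Pck1 (chromosome 2, 173153048 to 173159273, plus strand, GRCm38) encodes cytosolic phosphoenolpyruvate carboxykinase, which makes phosphoenolpyruvate from oxaloacetate. Its level in the livers was 1494 CPM at the lowest, 2796 at the median, and 3788 at the highest. The tumors had 352 (T-HCC662), 227 (T-HCC663), 374 (T-HCC941), 207 (T-HCA992), 331 (TCi-HCC981), and 2264 CPM (TCi-HCA984). Thus 5 tumors were below every liver, and TCi-HCA984 lay inside the range of the livers. Relative to the liver of the same mouse, Pck1 stood at 6.65% in T-HCC663, 11.1% in T-HCC941, 13.8% in T-HCA992, 15.9% in T-HCC662, 20.7% in TCi-HCC981, and 59.8% in TCi-HCA984. Over all 6 tumors Pck1 was 4.23-fold lower, or -2.08 on the log2 scale (SE 0.615, adjusted p = 0.0463, edgeR). Pck1 was the only member of 8 tested to pass in that comparison, in which 10.7% of 13822 genes passed and 3.91% passed as lower. At an unadjusted p under 0.05 there were 4 members and 3618 genes, and with DESeq2 G6pc, Slc37a4, and Fbp1 passed beside Pck1. The call of Pck1 was close to the threshold. Leaving out any single library other than the liver of TCi-HCC981 or the tumor TCi-HCA984 raised its adjusted p to between 0.057 and 0.1, with log2 fold changes from -2.18 to -1.90. Without both libraries of the mouse of TCi-HCA984 the log2 fold change was -3.01 (adjusted p = 0.0017, edgeR), and with the mouse as a block it was -2.63 (adjusted p = 0.00783, edgeR). In the p21+/Tert mice alone Pck1 fell by 3.20 on the log2 scale (SE 0.603, adjusted p = 0.0131, edgeR), and this call held with each of the 8 libraries left out in turn, the highest adjusted p being 0.0418. It was lost, with -3.38 and an adjusted p of 0.0591 (edgeR), when both libraries of the mouse of T-HCC662 were left out.

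Fbp1 (chromosome 13, 62864753 to 62888282, minus strand) encodes the liver fructose-1,6-bisphosphatase, and Fbp2 (62836877 to 62858422, same strand) the isozyme known from muscle. The annotated genes lie 6330 bases apart. Fbp1 ranged from 682 through a median of 785 to 1052 CPM in the livers. In the tumors it was 449 (T-HCC662), 302 (T-HCC663), 170 (T-HCC941), 432 (T-HCA992), 309 (TCi-HCC981), and 949 CPM (TCi-HCA984). Every tumor was below the liver of its own mouse, from 21% of it in T-HCC941 to 90.2% in TCi-HCA984, and 5 of 6 were below all livers. Fbp1 and Pck1 were the 2 members lower than the own liver in all 6 mice, as were 11.5% of the 13822 genes tested. Over all tumors Fbp1 did not pass, at -0.94 on the log2 scale (SE 0.352, adjusted p = 0.106, edgeR). It passed when the mouse was a block (-1.13, adjusted p = 0.0338, edgeR), for the 4 HCC alone (-1.46, adjusted p = 0.0136, edgeR), and without TCi-HCA984 (-1.34, adjusted p = 0.00931, edgeR).

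Fbp2 was close to absent in the livers, with 0 to 3 reads in 5 of them and 15 reads (0.727 CPM) in that of TCi-HCA984. It reached 62 reads (2.79 CPM) in T-HCC662 and 49 reads (2.15 CPM) in T-HCC663, whose exact Poisson 95% intervals of 2.14 to 3.58 and 1.59 to 2.84 CPM lay above those of every liver. These intervals cover counting error only. T-HCC941 had 12 reads, T-HCA992 had 7, TCi-HCA984 had 8, and TCi-HCC981 had 0, which allows up to 0.189 CPM. The Ctnnb1-mutated tumors were thus above all other libraries, and the other 4 tumors overlapped with the livers. Fbp2 was the only member not to overlap between the Ctnnb1-mutated and the other tumors, and 37.5% of the 15182 genes tested did not. Fbp2 did not pass the expression filter of the comparison of all tumors with all livers. In the models with more groups Fbp2 was higher by 4.32 on the log2 scale (SE 1.25, adjusted p = 0.0645, edgeR) in p21+/Tert tumors and 3.59 ± 1.06 (adjusted p = 0.0603, edgeR) for the Ctnnb1-mutated tumors against livers, and neither passed. Both sizes depend on the prior count of the fit because the livers hold so few reads. The first passed with DESeq2 (4.45, adjusted p = 0.00706) and with library totals only (4.61, adjusted p = 0.0438, edgeR). The second passed with DESeq2 (3.67, adjusted p = 0.0401), with library totals only (adjusted p = 0.0317, edgeR), with only the libraries compared (adjusted p = 0.0447, edgeR), and without the liver of TCi-HCA984 (4.81, adjusted p = 0.0173, edgeR). Of 5 skeletal muscle markers, Pvalb was at 0 in all libraries, and the sum was at most 0.145 CPM in livers, against 0.856 in T-HCC662, 1.05 in T-HCC663, and at most 0.514 CPM in the other tumors. The muscle gene Acta1 was at 0.811 CPM in T-HCC662. T-HCC663 had Acta1 at 0.57, Tnnt3 at 0.351, and Ckm at 0.131 CPM. Acta1, the only muscle marker tested, was called as higher in the Ctnnb1-mutated tumors than in the livers (4.34, adjusted p = 0.043, edgeR). DESeq2 called 0 muscle markers in that comparison. The part of muscle RNA in the Fbp2 reads was not tested.

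G6pc (chromosome 11, 101367561 to 101377903, plus strand) encodes the catalytic subunit of glucose-6-phosphatase, and Slc37a4 (chromosome 9, 44396852 to 44402968, plus strand) the transporter that brings glucose-6-phosphate to it. G6pc was 161, 63.1, 379, and 176 CPM in the livers of T-HCC662, T-HCC663, T-HCA992, and T-HCC941, and 506 and 424 CPM in those of TCi-HCC981 and TCi-HCA984. Both p21+/TertCi livers were above all p21+/Tert livers. G6pc, Ppargc1a, and Pygl, 3 of the 9 members, did not overlap between the livers of the 2 genotypes, nor did 16.1% of the 15182 genes tested. In the tumors it was 148 (T-HCC662), 87.8 (T-HCC663), 34.7 (T-HCC941), 106 (T-HCA992), 153 (TCi-HCC981), and 156 CPM (TCi-HCA984). Only T-HCC941 was below all livers. Relative to the own liver G6pc was higher in T-HCC663, at 139%. It stood at 91.7% in T-HCC662, the other Ctnnb1-mutated tumor, and at 19.7% to 36.7% in the other 4 tumors. Against all 6 livers it did not pass, at -1.33 on the log2 scale (SE 0.479, adjusted p = 0.0942, edgeR). It passed without the liver of T-HCC663 (-1.54, adjusted p = 0.0422, edgeR).

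Slc37a4 had 127 CPM in the lowest liver, 171 at the median, and 253 in the highest. The tumors had 113 (T-HCC662), 110 (T-HCC663), 75.6 (T-HCC941), 43.5 (T-HCA992), 55.1 (TCi-HCC981), and 170 CPM (TCi-HCA984). As for Pck1 and Fbp1, 5 tumors lay below all livers and TCi-HCA984 within their range, at 112% of its own liver. Over all tumors the log2 difference was -0.93 (SE 0.312, adjusted p = 0.074, edgeR). It was -1.04 when the mouse was used as a block (adjusted p = 0.0263, edgeR) and -1.19 without TCi-HCA984 (adjusted p = 0.0189, edgeR), both past the threshold. In p21+/Tert mice it was -1.24 (adjusted p = 0.0807, edgeR), and -1.30 with the block (adjusted p = 0.0293, edgeR).

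Pcx (chromosome 19, 4510472 to 4621752, plus strand) encodes pyruvate carboxylase, the mitochondrial enzyme that makes oxaloacetate. Its level spanned 495 to 989 CPM in livers, with a median of 543, and 289 to 807 CPM in tumors, with a median of 374. It was lower than in the own liver in 5 of 6 mice, and only T-HCC662 (104% of its own liver) and TCi-HCA984 (81.6%) lay within the range of all livers. At -0.47 on the log2 scale (SE 0.3, adjusted p = 0.346, edgeR) it did not pass. Ppargc1a (chromosome 5, 51454250 to 51567726, minus strand) was a low-level gene, at 3.73 to 14.1 CPM in livers and 4.52 to 12.3 CPM in tumors, all of which lay within the range of the livers. It went from 33.7% of the own liver in T-HCC941 to 329% in TCi-HCA984, whose liver had the lowest value of all. Over all tumors it was at -0.10 on the log2 scale (SE 0.351, adjusted p = 0.896, edgeR), with an approximate 95% interval from -0.78 to 0.59.

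For storage, Gys2 (chromosome 6, 142422613 to 142473109, minus strand) ranged from 56.3 to 172 CPM in livers (median 79.8) and from 42.9 to 165 CPM in tumors (median 70.3). The livers of T-HCC662 and T-HCC663, with 161 and 172 CPM, stood above the other 4, which had 56.3 to 87.0 CPM. Gys2 was below the own liver in all 4 p21+/Tert mice, at 25% to 94.2% of it, and above it in both p21+/TertCi mice, at 134% and 227%. Over all tumors the log2 difference of -0.19 (SE 0.402, adjusted p = 0.814, edgeR) did not pass. Pygl (chromosome 12, 70190811 to 70231488, minus strand) ranged from 159 to 461 CPM in livers (median 264) and from 152 to 342 CPM in tumors (median 188). Both of its highest values were from the mouse of T-HCA992, and tumors stood at 61.9% to 77.6% of the own liver in 5 mice and at 125% in TCi-HCA984. Pygl did not pass, at -0.42 (SE 0.261, adjusted p = 0.341, edgeR).

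**Figure D2:**
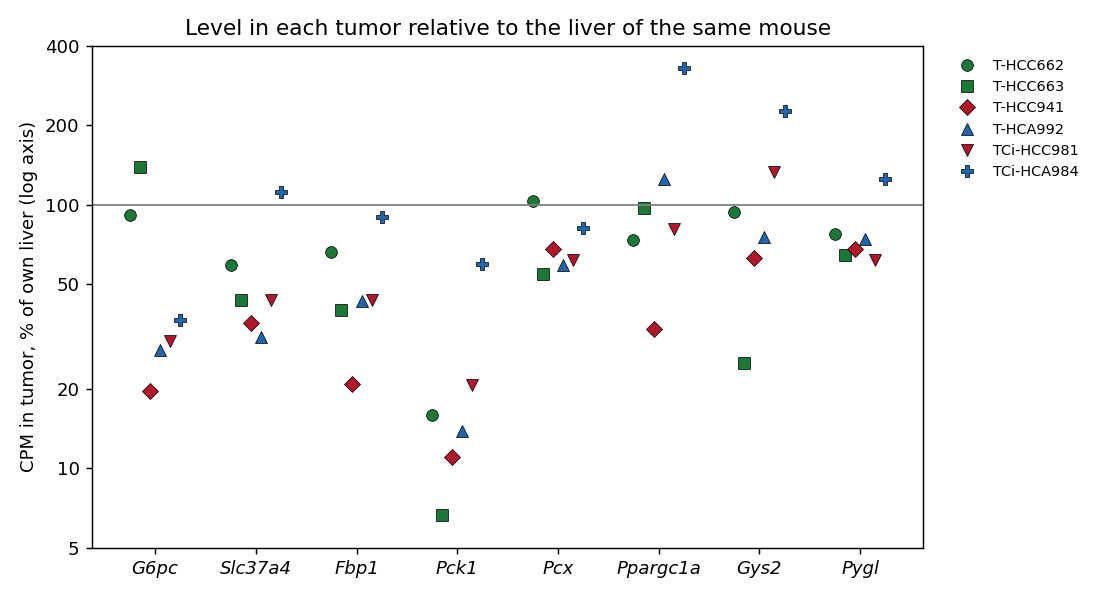
CPM in each tumor as a percentage of the CPM in the non-tumoral liver of the same mouse (log axis; gray line at 100%) for the 8 genes with at least 50 reads in every liver, 1 symbol per tumor, colored by driver class (green Ctnnb1-mutated, red Egfr- or Hras-mutated, blue neither). Pck1 is lowest in 5 of the tumors, and the plus signs of TCi-HCA984 run from 36.7% to 329%.

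By tumor, the median over these 8 genes (all members except Fbp2) was 34.6% of the own liver in T-HCC941, 49% in T-HCC663, 51.1% in T-HCA992, 52.5% in TCi-HCC981, 75.6% in T-HCC662, and 101% in TCi-HCA984. T-HCC941 had all 8 genes below its own liver, T-HCC662, T-HCC663, T-HCA992, and TCi-HCC981 had 7, and TCi-HCA984 had 4. Over all 6 tumors and 6 livers the 8 members had negative log2 fold changes with a median of -0.70, against 0.01 for all 13822 genes. None of the members separated the groups fully, whereas 2.18% of genes were lower in every tumor than in every liver. TCi-HCA984 was also nearest to its own liver over the whole transcriptome, since its Pearson r with it across genes (log2 of CPM + 1) was 0.976, against 0.941 to 0.96 for the other 5 tumors. Genes are not independent replicates in that comparison. Its liver also had the highest Pck1 and Fbp1 and the highest levels among the livers of genes known to rise on fasting. Of the other members, Pcx and Fbp2 were also highest in that liver. Ppargc1a (3.73 against 5.59 to 14.1 CPM) and Pygl (159 against 246 to 461 CPM) were lowest in it. Igfbp1, which encodes an insulin-repressed binding protein, was 705 CPM there against 4.17 to 64.6 in the other 5 livers, and 145 to 2449 CPM in the tumors, with 1412 in TCi-HCA984. Angptl4 was 305 CPM in that liver against 20.7 to 89.7 in the other livers, and Cpt1a, the carnitine palmitoyltransferase gene, was 520 against 188 to 356 CPM. Pdk4 (33.7 against 1.62 to 22.2 CPM) and Fgf21 (26.8 against 0.531 to 4.40 CPM) were also highest in it. Cpt1a was highest among the tumors in TCi-HCA984 (567 CPM), and Igfbp1, Angptl4, Pdk4, and Fgf21 were not. Of the 6 genes of the fasting list, 0 passed between tumors and livers with edgeR, 2 had an unadjusted p under 0.05, and 2 passed with DESeq2. The part of feeding state in the levels of the members was not tested.

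The tumors were next compared by driver class in 1 model of the 6 livers and the 3 classes of 2 tumors. Against the livers, the Ctnnb1-mutated tumors had 1 of 9 members called, Pck1, which fell by 3.22 on the log2 scale (SE 0.829, adjusted p = 0.0357, edgeR). In that comparison 8.2% of 15182 genes passed and 3.2% passed as lower. The call was lost without the liver of T-HCC662, T-HCC663, or T-HCC941 (adjusted p of 0.054, 0.0594, and 0.0568, edgeR) and without either tumor (0.148 and 0.217). The log2 fold changes then ran from -3.58 to -2.91, and with 1 tumor left the spread came from the other groups. Against the same livers, the other 4 tumors had 3 members called, all lower. These were Pck1 (-2.02 ± 0.573 SE, adjusted p = 0.0269), Fbp1 (-1.05 ± 0.293, adjusted p = 0.0247), and Slc37a4 (-1.11 ± 0.343, adjusted p = 0.0374, edgeR). The background was 22.8% of genes called and 11.5% called as lower. Without T-HCC941 none of the 3 passed, with adjusted p of 0.078 (Pck1), 0.0939 (Fbp1), and 0.0692 (Slc37a4, edgeR). Without T-HCA992 only Pck1 passed, and without TCi-HCC981 only Fbp1. Slc37a4 was also lost without the liver of T-HCC662, T-HCC663, or T-HCC941, with adjusted p of 0.0666, 0.072, and 0.0695 (edgeR). Without both libraries of the mouse of TCi-HCA984 all 3 passed, with log2 fold changes of -3.15 (Pck1), -1.28 (Fbp1), and -1.77 (Slc37a4). With the mouse as a block G6pc passed as well (-1.85, adjusted p = 0.00267, edgeR).

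**Figure D3:**
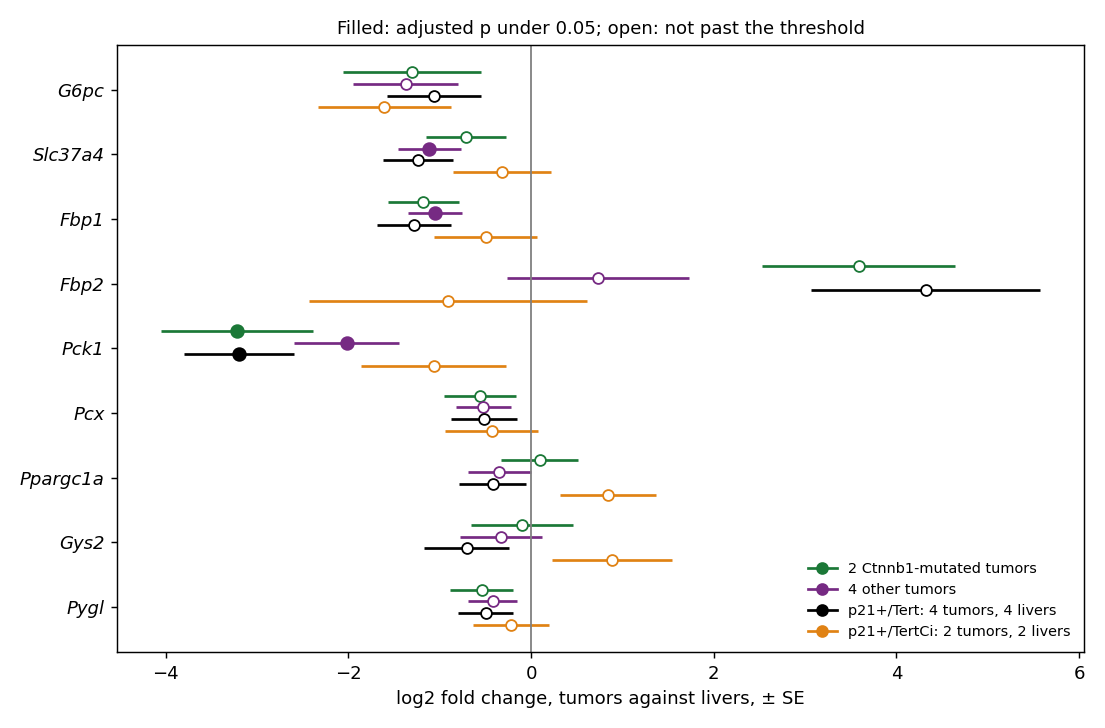
Log2 fold changes of tumors against livers (bars are SE) for the 9 genes in 4 comparisons, the 2 Ctnnb1-mutated tumors and the 4 other tumors each against all 6 livers, and the tumors against the livers of each genotype. Filled points passed the threshold, which only Pck1, Fbp1, and Slc37a4 did, and the widest bars are those of Fbp2.

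Between the classes themselves no member passed. Of 15182 genes, 12.5% were called between the Ctnnb1-mutated and the other tumors, and 0 of the 9 members, whose median log2 difference was 0.07, with 1 member (Fbp2) at an unadjusted p under 0.05. DESeq2 also called 0 members. The log2 difference of Pck1 was -1.20 ± 0.752 (SE, adjusted p = 0.306, edgeR) with an interval from -2.68 to 0.27, and was 0.10 without TCi-HCA984, whereas that of Fbp1 was -0.13 ± 0.381 with an interval from -0.87 to 0.62. Fbp2, at 2.85 ± 1.17 (adjusted p = 0.125, edgeR), passed only without T-HCC941 (5.68, adjusted p = 0.0485). With the mouse as a block, which compares the tumor-to-liver differences, G6pc was higher in the Ctnnb1-mutated class by 2.01 (adjusted p = 0.0357, edgeR), against 0.07 ± 0.735 without the block.

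Over the same tumors, markers of the lobule zones were far apart. All 8 pericentral markers (Glul, Cyp2e1, Cyp1a2, Oat, Axin2, Lgr5, Rhbg, and Slc1a2) were higher in the Ctnnb1-mutated than in the other tumors, and 7 of 8 periportal markers (Cyp2f2, Hal, Gls2, Cps1, Arg1, Hsd17b13, and Sds) were lower, Ass1 being the exception (0.27, adjusted p = 0.787, edgeR). The periportal sum was 320 and 312 CPM in T-HCC662 and T-HCC663, 3071 to 4295 CPM in the other tumors, and 3130 to 9199 CPM in the livers. The pericentral sum was 26632 and 21894 CPM in the Ctnnb1-mutated tumors, 488 to 603 CPM in T-HCC941, T-HCA992, and TCi-HCC981, 2593 CPM in TCi-HCA984, and 6359 to 10620 CPM in the livers. Against the livers, the other 4 tumors also had negative log2 fold changes for 7 of 8 periportal markers (median -1.12). Of these 8 markers 2 were called as lower and 1 as higher. Pck1 and Fbp1 were low in both Ctnnb1-mutated tumors, which had few periportal transcripts, and in 3 of the 4 others, which had few pericentral ones. TCi-HCA984 had the pericentral sum nearest to the livers among the 4. The part of zonation in the levels of the members was not tested.

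**Figure D4:**
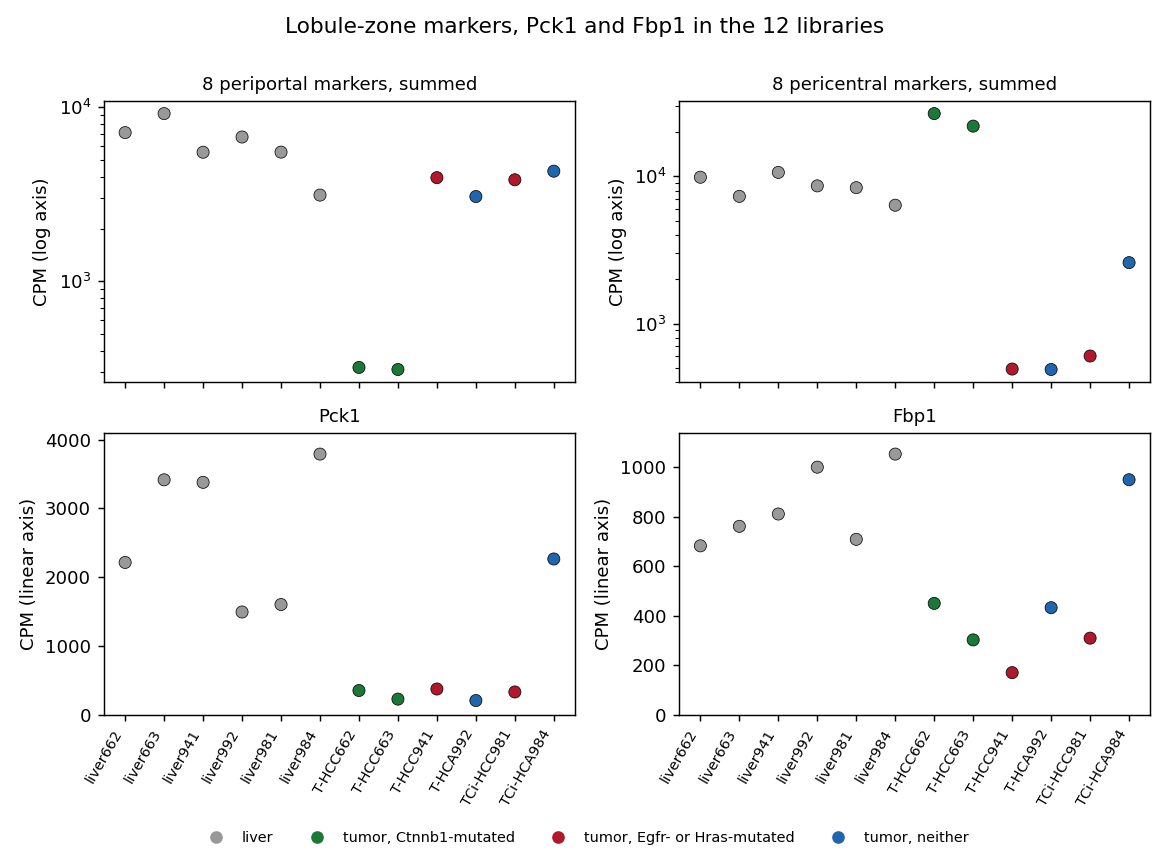
Summed CPM of 8 periportal and 8 pericentral hepatocyte markers (log axes) above the CPM of Pck1 and Fbp1 (linear axes from 0) in the 12 libraries, livers in gray and tumors colored by driver class. The zone markers part the Ctnnb1-mutated tumors (green) from the others, whereas Pck1 and Fbp1 are low in both, TCi-HCA984 excepted.

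Between the tumors with an Egfr or Hras mutation and those with neither, all 9 members had negative log2 differences. Their median was -0.96, against -0.04 for all genes. Of the members 0 passed, as did 0% of all 15182 genes with edgeR and 105 genes with DESeq2. With 1 tumor left out, differences reached 0.75 for Pck1 and 0.56 for Slc37a4 (both without TCi-HCA984), 0.20 for G6pc, and 0.85 for Fbp2. Those of Fbp1, Pcx, Ppargc1a, Gys2, and Pygl stayed negative. Such fits leave 1 tumor in a class. At an unadjusted p under 0.05 there were 2 members, Fbp1 (-1.56 ± 0.448) and Ppargc1a (-1.26 ± 0.532), and 1331 genes. Fbp1 was 170 and 309 CPM in T-HCC941 and TCi-HCC981, and 432 and 949 CPM in T-HCA992 and TCi-HCA984. Fbp1, Pcx, Ppargc1a, and Pygl, 4 of the 9 members, did not overlap between these classes, nor did 40.2% of all genes tested. By diagnosis, the HCC were below the HCA for 8 of 9 members, with 0 past the threshold, against 0.204% of all genes. The differences were -1.23 ± 0.367 (SE, adjusted p = 0.196, edgeR) for Fbp1 and -1.98 ± 0.684 (adjusted p = 0.23, edgeR) for Pck1, the 2 members with an unadjusted p under 0.05. The Pck1 difference rested on TCi-HCA984, without which it was 0.61 (adjusted p = 0.732, edgeR), and the adenoma T-HCA992 had the lowest Pck1 of all tumors. DESeq2 called 478 genes, Fbp1 among them (-1.21, adjusted p = 0.0432). T-HCC663 is described as an adenoma by histology, and with it moved to the adenomas 0 members passed as well.

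For genotype, the p21+/Tert mice had 1 of 9 members called between tumors and livers (Pck1), where 6.49% of genes (986) passed and 2.3% passed as lower. That number of genes was 240, 347, and 424 without the liver of T-HCC662, T-HCC663, or T-HCC941, and 587 without T-HCC941. In p21+/TertCi mice 0 of 9 members passed, as did 0% of genes with edgeR and 362 genes with DESeq2, and G6pc was the 1 member at an unadjusted p under 0.05, among 1618 genes. Pck1 was at -1.07 on the log2 scale (SE 0.792, adjusted p = 0.66, edgeR) there, from 1602 CPM in the liver to 331 CPM in TCi-HCC981 and from 3788 to 2264 CPM in TCi-HCA984. The difference between the genotypes, tested as an interaction, was 2.13 ± 0.974 for Pck1 (adjusted p = 1, edgeR), with 0 of 9 members and 0% of all genes past the threshold. DESeq2 called 6 genes and 0 members, and 1 member (Fbp2) and 556 genes had an unadjusted p under 0.05. Between tumors without a Ctnnb1 mutation, p21+/TertCi against p21+/Tert gave 0 members and 1 gene (0.00659%), with 165 genes and 0 members by DESeq2. Pck1, higher by 2.19 ± 0.825, was the only member with an unadjusted p under 0.05 among 1217 genes. These Pck1 values rested on TCi-HCA984. Without it the interaction was 0.13, the difference between tumors without a Ctnnb1 mutation 0.19, and the change in p21+/TertCi mice -3.07, with TCi-HCC981 then the only tumor of its group and none past the threshold. Between the non-tumoral livers 0 members and 0% of genes passed (42 genes and 0 members with DESeq2). Ppargc1a (-1.24 ± 0.478) was the only member there with an unadjusted p under 0.05, among 756 genes, with 3.73 and 5.59 CPM in p21+/TertCi livers and 7.62 to 14.1 CPM in p21+/Tert livers. G6pc was higher by 1.27 ± 0.597 (adjusted p = 0.93, edgeR).

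The other genes of the pathway were taken as 4 lists, to be read against the 10.7% of all genes called between tumors and livers. Of 19 partner enzymes of gluconeogenesis, 2 rose, 2 fell, and 15 did not pass between tumors and livers, with a median log2 fold change of -0.38. Pck2, the mitochondrial counterpart of Pck1, rose by 2.11 ± 0.255 (SE, adjusted p = 0.000743, edgeR), from 3.80 to 7.94 CPM in livers to 16.1 to 37.7 CPM in tumors, and the groups did not overlap. Gpi1 (glucose-6-phosphate isomerase) rose by 1.06, and the aspartate aminotransferase gene Got1 and the malate dehydrogenase gene Mdh1, both of the cytosol, fell by 1.49 and 0.89.

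Of 24 tested glycogen enzymes and regulators, 3 rose and 0 fell, with a median of -0.01, a share close to that of all genes. Pygb, the brain isozyme of glycogen phosphorylase, rose by 3.76 ± 0.559 (adjusted p = 0.00188, edgeR), from 1.29 to 5.84 CPM in livers to 14.8 to 85.7 CPM in tumors, while the liver isozyme Pygl did not pass. Gyg (glycogenin) rose by 1.10 and Pgm1 by 1.44. Of 12 tested genes of glucose transport, phosphorylation, and glycolysis, 3 rose, namely Hkdc1, a hexokinase family member (3.78 ± 0.836), Pfkfb3 (1.22), and the pyruvate kinase gene Pkm (1.27), and 0 fell. Hkdc1 was a low-level gene, at 0.0645 to 0.727 CPM in livers. It had 19.9 CPM in T-HCC941, 8.89 in T-HCA992, and 0.856 to 3.18 CPM in the other tumors. Of 23 hormone and transcription regulators 2 rose (Trib3, by 1.78, and Sik1, by 2.43) and 3 fell (Crtc2, by 0.79, Cebpa, by 0.80, and Klf15, by 1.11, which is named beyond the rule, after its value was seen). Sik1 was above the own liver in all 6 mice. It had 397 CPM in T-HCC662, 292 in T-HCC941, 30.3 to 61.4 in the other tumors, and 18.9 to 38.6 in livers. Trib3 was above the own liver in 5 mice and below it in T-HCC663 (24.6 against 25.9 CPM). Crtc2 encodes a cAMP-responsive coactivator and Sik1 a kinase that phosphorylates proteins of the Crtc family. The transcription factor Hnf4a did not pass, at -0.16 ± 0.201 (adjusted p = 0.657, edgeR).

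**Figure D5:**
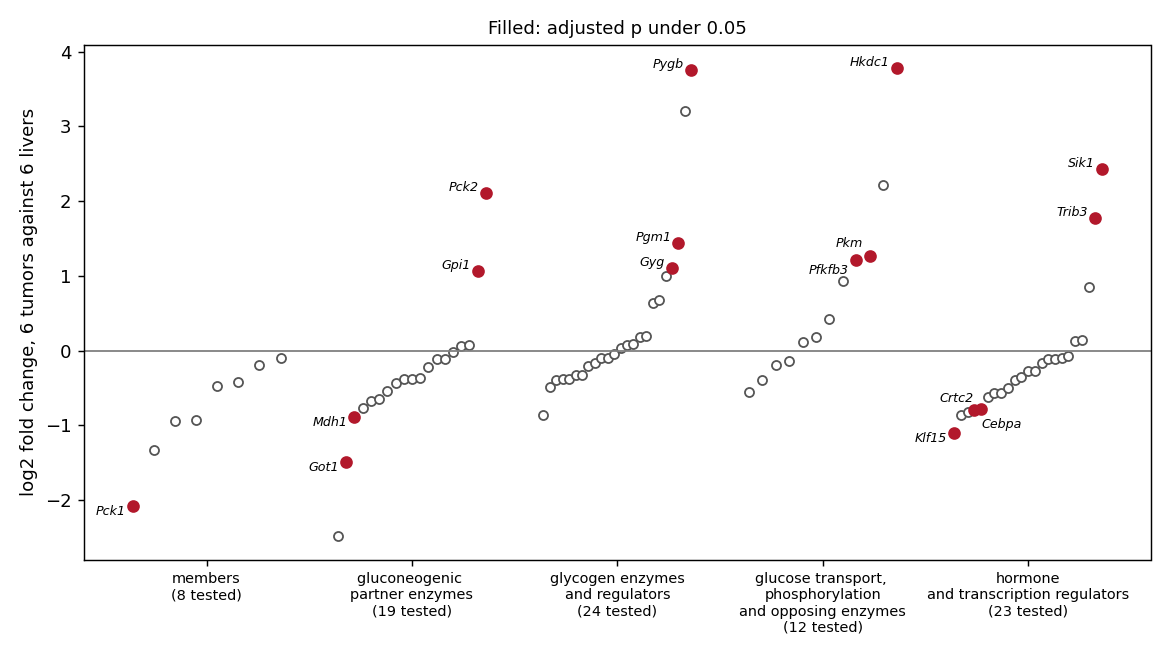
Log2 fold changes of the 6 tumors against the 6 livers for the 8 tested members and for the genes of 4 related lists, sorted within each list. Filled points passed the threshold and are named, among them Pck2, Pygb, and Hkdc1 as higher and Pck1 and Got1 as lower.

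Between the driver classes, 3 partner enzymes were higher in the Ctnnb1-mutated than in the other tumors and 1 was lower. Aqp9, the glycerol channel, was higher by 2.20 ± 0.365 (adjusted p = 0.00466, edgeR), with 787 and 717 CPM in T-HCC662 and T-HCC663 and 95.9 to 361 CPM in the others. Mdh2 and Eno1 were higher by 1.21 and 1.11. Mdh2 had 445 CPM in T-HCC662 and 172 in T-HCC663, against 97.4 to 158 CPM in the others. Eno1 had 374 and 185 CPM against 76.6 to 187 CPM, so the classes overlapped for Eno1. Sds, serine dehydratase, which is also on the periportal list, was lower by 4.92 (SE 0.904, adjusted p = 0.00755, edgeR), with 6.22 and 0.964 CPM against 59.2 to 160 CPM. On the other lists Ppp1r3g, a glycogen-targeting subunit of protein phosphatase 1 (3.55), Pfkfb1 (1.20), Pfkfb3 (1.01), and Irs1 (1.13) were higher and 0 genes were lower. Ppp1r3g had 43.9 CPM in T-HCC662, 6.79 in T-HCC663, and 1.11 to 3.56 CPM in the other tumors. Of all genes tested, 12.5% were called between these classes. Between the Egfr- or Hras-mutated tumors and those with neither mutation 0 genes of the 4 lists passed with edgeR and 1 with DESeq2. At an unadjusted p under 0.05 there were 4 partner enzymes, 4 glycogen genes, 2 of glucose transport and glycolysis, and 4 regulators.

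Over the 12 libraries, the tested genes whose log2(CPM + 1) was most like that of a member are given as a description, and the points share the split into tumors and livers. For Pck1 they were D230025D16Rik (Pearson r = 0.967), Sdf4 (0.955), and Fam184a (0.942), and for Fbp1 Slc12a2 (0.959), Ei24 (0.947), and Cyb5d2 (0.946). Slc37a4 was most like Eif4a2 (0.976), Nnmt (0.952), and Oaf (0.951), and Pcx like Bace1 (0.945) and Etfdh (0.938). For G6pc the nearest were Ppp2r1b (0.885), Prlr (0.883), and A230050P20Rik (0.882), and for Fbp2 Sdcbp2 (0.96), Mybl1 (0.927), and Becn1 (0.923). Gys2 was nearest to Rnf13 (0.899), Tom1l1 (0.88), and Cops3 (0.829), and Pygl to Stoml2 (0.919), Khnyn (0.899), and Ptprj (0.887). Ppargc1a had the lowest values, with Zfp467 (0.828) and Orc6 (0.82). No member was among the nearest 3 genes of another.

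Markers of other cell types were set beside these results by their summed CPM, in livers and then in tumors. Endothelial markers (6 genes) ran from 53.1 to 165 and from 50.8 to 256 CPM, with Pecam1 called as higher (1.59, adjusted p = 0.0179, edgeR), and macrophage markers (6 genes) from 111 to 1256 and from 79.3 to 875 CPM, with 0 called. Stellate cell and fibroblast markers (6 genes) ran from 41.4 to 215 and from 19.6 to 308 CPM, and cholangiocyte markers (5 genes) from 50.9 to 134 and from 17.8 to 1064 CPM, with 0 called in both. The markers of T cells (5 genes), B cells (4), and neutrophils (3) reached at most 26.4, 40.8, and 22.3 CPM in any library, and 0 passed. With an unadjusted p under 0.05, and with DESeq2, there were 2 stellate markers and 0 macrophage, cholangiocyte, T cell, B cell, or neutrophil markers. By driver class, the Ctnnb1-mutated tumors had 3 stellate markers (Des, Lrat, and Dcn) and the cholangiocyte marker Sox9 lower than the livers. The other 4 tumors had 2 endothelial markers (Pecam1 and Cdh5), 2 stellate markers (Col1a1 and Acta2), and Sox9 higher, and the macrophage marker Marco lower. Among the hepatocyte markers, Serpina1c was lower in the Ctnnb1-mutated tumors, and in the others Alb was higher and Asgr1 lower. The part of these cell types in the levels of the members was not tested.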

How the data were processed

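Poly(A) RNA of 6 liver tumors and 6 non-tumoral livers was sequenced as paired reads on a NovaSeq instrument. The authors filtered the reads by quality, mapped them with Subread to a genome of mm10 plus mCherry, counted them per gene with featureCounts 1.6.4, and deposited raw read counts for 24421 symbols. The submitters' processing notes also name SAMtools. Strandedness and annotation release are not given in the sources used here. The authors corrected for sequencing run in DESeq2, and which library belonged to which run is not given in the sources used here, so no such term was used.

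Counts were TMM-scaled and tested with edgeR 4.0.16 in R 4.3.3 (filterByExpr, quasi-likelihood F test, Benjamini-Hochberg, threshold 0.05). Tumors against livers used 2 groups, and the other comparisons used all 12 libraries in models of genotype and tissue (4 groups), of livers and driver classes (4 groups), or of both (5 groups). The SE is the absolute log2 fold change divided by the square root of F. Samples were grouped by their labels, with driver class and diagnosis from the study's text. P-values measure the spread between mice. The fits were tested on simulated data. Mouse numbers pair each tumor except T-HCC662 with a liver of the same animal, and T-HCC662 was matched to its liver as described above. The correlation of tumor and liver deviations from the group means was 0.0416 to 0.444 over 13822 genes in p21+/Tert mice. It was 0.547 in both p21+/TertCi mice, where groups of 2 libraries make the 2 values equal and cannot speak for either pair alone. The mouse was used as a block in an alternative fit. Further alternatives were DESeq2 1.42.0, RLE size factors, library totals, every gene with at least 1 count, only the libraries compared, each library left out, the HCC alone, and T-HCC663 as an adenoma, and, chosen after seeing the data, leaving out the mouse of TCi-HCA984 or of T-HCC662. Positions of genes come from GENCODE (GRCm38), where no member shares exons with another gene. Members and lists were chosen with earlier results of these data known. Genes named are all members, up to 4 of smallest p-value per list in 3 comparisons, Hnf4a, and the 3 genes most like each member, apart from a few results that are not reported here.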

Additional observations from a re-analysis of the deposited data

Results flagged for a closer look

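In each of 5 groups of 4 to 6 libraries, the gap between the highest or lowest value and its neighbor was set against the range of the group for each of the 9 genes. Of these 45 tests 6 stood apart at the 95% level, which chance gives for about 1 group in 20, and the groups overlap. TCi-HCA984 stood apart for Pck1, with 2264 CPM, both among the 6 tumors and among the 4 tumors without a Ctnnb1 mutation, and for Fbp1 among the 6 tumors, with 948.5 CPM. T-HCA992 stood apart for Pygl, with 342.3 CPM among the tumors, as did its liver, with 461.5 CPM, among the p21+/Tert livers. The liver of TCi-HCA984 stood apart for Fbp2, with 0.727 CPM from 15 reads.

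Relative to the own liver, a pair of genes moved in opposite directions in every mouse of the 2 genotypes, and the difference was not tested on the ratios as printed here. The share of all genes that did so was not counted. Fbp2 was higher in all 4 p21+/Tert tumors and lower in both p21+/TertCi tumors, the medians of the log2 ratios of CPM + 0.5 differing by 1.867. The p21+/TertCi directions of Fbp2 rest on 3 reads in the liver and 0 in the tumor for TCi-HCC981, and 15 and 8 for TCi-HCA984. In both mice the exact Poisson 95% intervals of liver and tumor overlapped. Among the p21+/Tert mice they also overlapped for T-HCC941, with 2 reads in the liver and 12 in the tumor, and for T-HCA992, with 1 and 7. Gys2 was lower in all 4 p21+/Tert tumors and higher in both p21+/TertCi tumors, by a difference of -1.334. In edgeR's interaction test neither passed, with adjusted p = 1 for both. With the mouse as a block, which tests the difference between the tumor-to-liver changes, Fbp2 was at -5.26 and Gys2 at 1.58 (p21+/TertCi minus p21+/Tert), both with adjusted p = 0.91.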

How the results depend on the processing

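No direction was reversed among member log2 fold changes called in either fit. Counts of members called were 1 between all tumors and livers, and became 4 with DESeq2, 0 with every gene of at least 1 count, and 3 with the replicate block, with the HCC alone, and without the mouse of TCi-HCA984. With 1 library left out they ran from 0 to 3. In p21+/Tert mice the count was 1, and 4 with DESeq2, 2 with library totals, 2 with the replicate block, and 0 without the mouse of T-HCC662. For the Ctnnb1-mutated tumors against livers it was 1, and 3 with DESeq2, 2 with library totals, 3 with only the libraries compared, and from 0 to 2 with 1 library left out. For the other tumors it was 3, and from 0 to 3 with 1 left out, and 4 with the block, which is within 1.5 times. Between Ctnnb1-mutated and other tumors it was 0, and 1 with the block and from 0 to 1 with 1 left out, and between HCC and HCA 0, and 1 with DESeq2. The block changed no other member call. The cause of these changes was not tested. The median log2 ratio of the members in T-HCC941 was -1.25 against the mean liver and -1.53 against its own. Genes called with DESeq2 were 2407, 2109, 3111, and 2126 in the comparisons of all tumors, p21+/Tert tumors, driver classes, and Ctnnb1-mutated tumors, against 1476, 986, 1895, and 1245 with edgeR. Between HCC and HCA they were 478 with DESeq2 and 31 with edgeR. Without 1 library, edgeR called from 863 to 1988 genes between all tumors and livers (863 without the liver of T-HCC662, 942 without T-HCC941), 410 to 1329 for the Ctnnb1-mutated tumors (410 without T-HCC662, 595 without T-HCC663), 1815 to 3617 for the other tumors against 3459 (1815 without T-HCA992, 2239 without TCi-HCC981), 437 to 1653 between the driver classes (437 without T-HCC662), and 8 to 37 between HCC and HCA. The number of mice, with 2 tumors per driver class, limits the precision, and Fbp2 rests on few reads.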
